A study of Mus musculus with 15 samples.

Results

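The genes described here are 38 genes of the chemical synapse, which encode synaptic vesicle proteins, the machinery that fuses vesicles with the presynaptic membrane, transmitter enzymes and transporters, active zone scaffolds, adhesion molecules and postsynaptic scaffolds. They were chosen as a fixed list of symbols, and all 38 were found among the 46679 genes of the deposited tables by their Ensembl identifiers. Each was measured by bulk RNA sequencing in naïve mouse brain and in tumors of 4 syngeneic glioblastoma lines grown in the brain, with 3 mice in each of the 5 groups. CT2A and GL261 are lines first induced with methylcholanthrene, of which CT2A has wild-type p53, while GL261 carries mutant K-ras and mutant p53. 005 is a stem-like line with activated H-ras and AKT on a p53 heterozygous background, and Mut3 is a stem-like line with NF1 and p53 inactivated. All lines carried GFP and firefly luciferase, and C57BL/6 mice aged 6 to 8 weeks received 500000 Mut3 cells, or 100000 cells of one of the other lines, in the right hemisphere. Tumors were taken from perfused animals at the humane end-point. The labels do not name the region from which the naïve samples were cut, and each tumor model rests on a single line, so a line cannot be told apart from the genotype it carries.

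At a chemical synapse, vesicles loaded with glutamate or GABA are held at an active zone by large scaffold proteins, and calcium entering the terminal binds synaptotagmins, which trigger the SNARE proteins on the vesicle and the plasma membrane to fuse. Neurexins on the presynaptic side bind neuroligins on the other, and behind the postsynaptic membrane PSD-95, Homer and Shank proteins anchor the receptors. Most of these genes are expressed mainly by neurons in the adult brain, although several have relatives that are also used by glia and by cells outside the nervous system.

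Total counts per sample were 3105119 to 5161132 in naïve brain, 7246421 to 8825088 in CT2A, 5380395 to 7244155 in GL261, 8523676 to 13130158 in 005 and 7525006 to 11308105 in Mut3. Some libraries stood apart from the others of their group. 005 replicate 3 had a summed level of 12 neuron markers of 1047 TPM, a length-scaled measure of abundance, against 196 and 103 in the other 005 tumors, a summed level of proliferation genes of 25.8 TPM against 117 and 143, and 17.8% of its counts on mitochondrial genes against 4.60% and 6.42%. Naïve replicate 2 had oligodendrocyte markers at 969 TPM against 249 and 201 in the other naïve brains, and the 38 synaptic genes summed to 1622 TPM against 1000 and 924 TPM. In CT2A replicate 1 the 38 genes summed to 133 TPM against 26.6 and 29.5 TPM in the other CT2A tumors, and the neuron markers to 246 TPM against 63.0 and 84.2 TPM. In GL261 replicate 1 the 38 genes summed to 86.3 TPM against 239 and 165 TPM in the other GL261 tumors, and the neuron markers to 191 TPM against 309 and 207 TPM. The neuron markers summed to 1392 to 1625 TPM in naïve brain, 63.0 to 246 in CT2A, 191 to 309 in GL261 and 37.7 to 78.2 in Mut3. The mitochondrial share ranged from 15% to 24% in naïve brain, 5.36% to 5.96% in Mut3, 3.48% to 7.59% in CT2A and 4.33% to 11.3% in GL261. For 005, the counts of calls, the medians and the log2 fold changes against naïve brain are given with and without replicate 3.

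Levels between samples are given as CPM, which are counts relative to the library total after scaling by the trimmed mean of M-values. This scale was chosen because the deposited TPM of the tumors ran lower than it when set against naïve brain. The median over 4672 genes of the log2 offset of the group mean was -0.82 in Mut3, -0.81 in GL261, -0.60 in 005 and -0.98 in CT2A. TPM, which is per length, is used to compare genes with each other within a group, for ratios of genes within a mouse, for summed marker levels and for naïve replicate 2 against the other naïve brains. Sums of TPM set side by side across groups carry this offset. Values are listed in the order of replicates 1, 2 and 3. Fold changes are log2 values ± their standard errors from edgeR's quasi-likelihood fit with p-values adjusted by Benjamini-Hochberg over all 17481 genes tested, and a gene was called where the adjusted p was under 0.05 and the log2 fold change at least 1 in size.

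All 38 synaptic genes had their highest group mean in naïve brain, on the CPM and on the TPM scale. The F test over the 5 groups in edgeR gave an adjusted p under 0.05 for 35 of them, while 52.1% of all genes tested passed. The exceptions were Unc13a (adjusted p = 0.139), Syn3 (adjusted p = 0.321) and Dlg4 (adjusted p = 0.0526). Against naïve brain, 35 members were lower in Mut3, 34 in CT2A, 10 in GL261 and 1 in 005, and the shares of all genes called lower in the same fits were 19.8%, 20.2%, 7.77% and 1.05%. No member was called higher than in naïve brain in any line by edgeR, DESeq2 or limma, and no member had a positive log2 fold change in edgeR. In the same edgeR fit, 17.9%, 19.0%, 14.6% and 11.6% of all genes were called higher. In bulk tissue, fewer cells of a type and less RNA per cell cannot be told apart. The median log2 fold change of the 38 members was -5.06 in Mut3, -3.14 in CT2A, -2.09 in GL261 and -1.63 in 005, where the median over all genes was 0.11, -0.04, -0.08 and 0.01. Markers of other cells moved too. The median log2 fold change of 8 oligodendrocyte markers was -3.15 in Mut3, -1.66 in CT2A, -0.52 in GL261 and -0.34 in 005, and that of 6 astrocyte markers was -2.21, -1.60, -0.48 and -0.59. For 5 microglia markers it was -2.20, -0.46, 0.29 and -0.25, for 5 oligodendrocyte precursor markers 2.32, -1.97, 1.36 and -0.25, and for 4 endothelial markers -0.33, -0.67, -0.07 and 0.27. For 4 leukocyte markers it was 1.13, 2.87, 3.48 and 4.15, and for 4 proliferation genes 5.52, 4.93, 4.20 and 4.39. The 005 medians without replicate 3 were -2.27 for oligodendrocytes, with 6 of the 8 called lower against none with it, -1.41 for astrocytes, -1.11 for precursors, -0.41 for microglia, 0.25 for endothelium, 4.41 for leukocytes and 4.82 for proliferation. The part of these markers and of the mitochondrial share in the levels of the 38 genes was not tested. In CPM, 37 members were lower in all 3 CT2A tumors than in any naïve brain, and the exception was Syn3 (28.5% of all genes were lower in this way). The same held for 34 members in GL261, with Syt4, Vamp1, Slc17a6 and Dlg4 overlapping (24.1% of all genes), for 18 in 005 (10.7%) and for 36 in Mut3, with Syn3 and Nlgn3 overlapping (26%). In 005 without replicate 3 it held for 37, with Sv2c overlapping (29.4%).

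**Figure D1:**
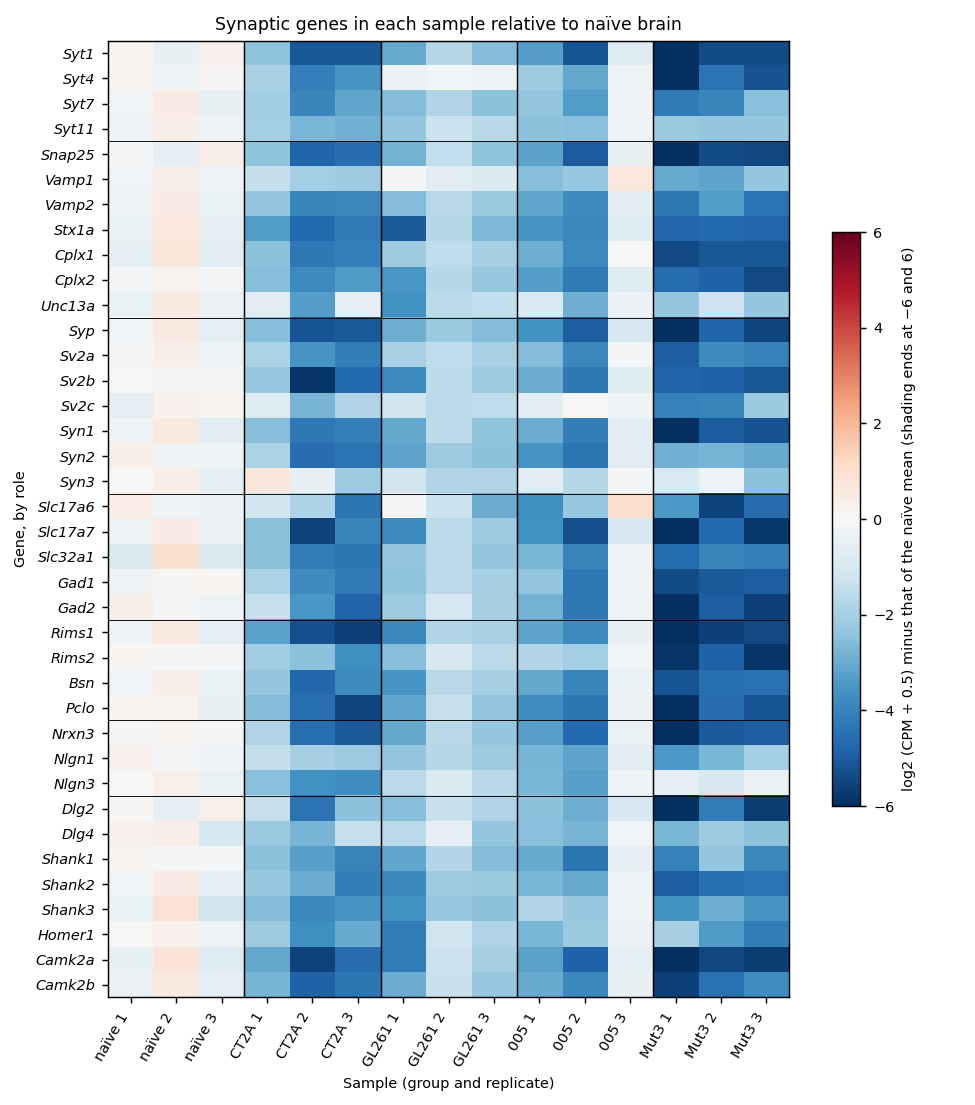
Level of each of the 38 synaptic genes (rows, by role) in each of the 15 samples (columns) as log2(CPM + 0.5) minus the log2 value of the naïve mean, with shading that ends at -6 and 6. The Mut3 columns are the darkest, 005 replicate 3 is close to the naïve columns, and the rows of Nlgn3 in Mut3 and Syt4 in GL261 stay pale.

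The counts for 3 of the 4 lines turned on single libraries. The 34 members lower in CT2A became 18 without CT2A replicate 2. Without CT2A replicate 1 the count was 33 and the median of the 38 genes moved from -3.14 to -4.01. The count of 10 in GL261 moved by more than 1.5 times without any naïve replicate (2, 1 and 4 members without replicates 1, 2 and 3), without any GL261 replicate (0, 6 and 1), without CT2A replicate 2 (5), 005 replicate 2 (21), 005 replicate 3 (31), Mut3 replicate 1 (4) or Mut3 replicate 3 (5). In GL261, 32 of the 38 members had an unadjusted p under 0.05 in edgeR, against 7017 of all 17481 genes tested. DESeq2 called 25 members there and limma on log2(TPM + 1), which carries the TPM offset, called 33. The single member lower in 005 was Nlgn1, while DESeq2 called 8 and limma 31. In edgeR's comparison of 005 with naïve brain, 13 of the 38 members and 5470 of all 17481 genes had an unadjusted p under 0.05. The call of Nlgn1 was lost when any library other than 005 replicate 3, Mut3 replicate 1 or Mut3 replicate 3 was left out. Without 005 replicate 3, 35 members were lower in 005, with a median of -3.44, and the members not called were Unc13a, Sv2c and Syn3. In that fit 18.1% of all genes were called lower and the median over all genes was -0.07. By role, those lower were 4 of the 4 synaptotagmins, 6 of the 7 SNARE proteins and partners, 5 of the 7 vesicle proteins, all 5 genes of transmitter loading, all 4 active zone scaffolds, all 3 adhesion genes and all 8 postsynaptic genes. The 35 members lower in Mut3 stayed between 33 and 36 whichever library was left out.

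**Figure D2:**
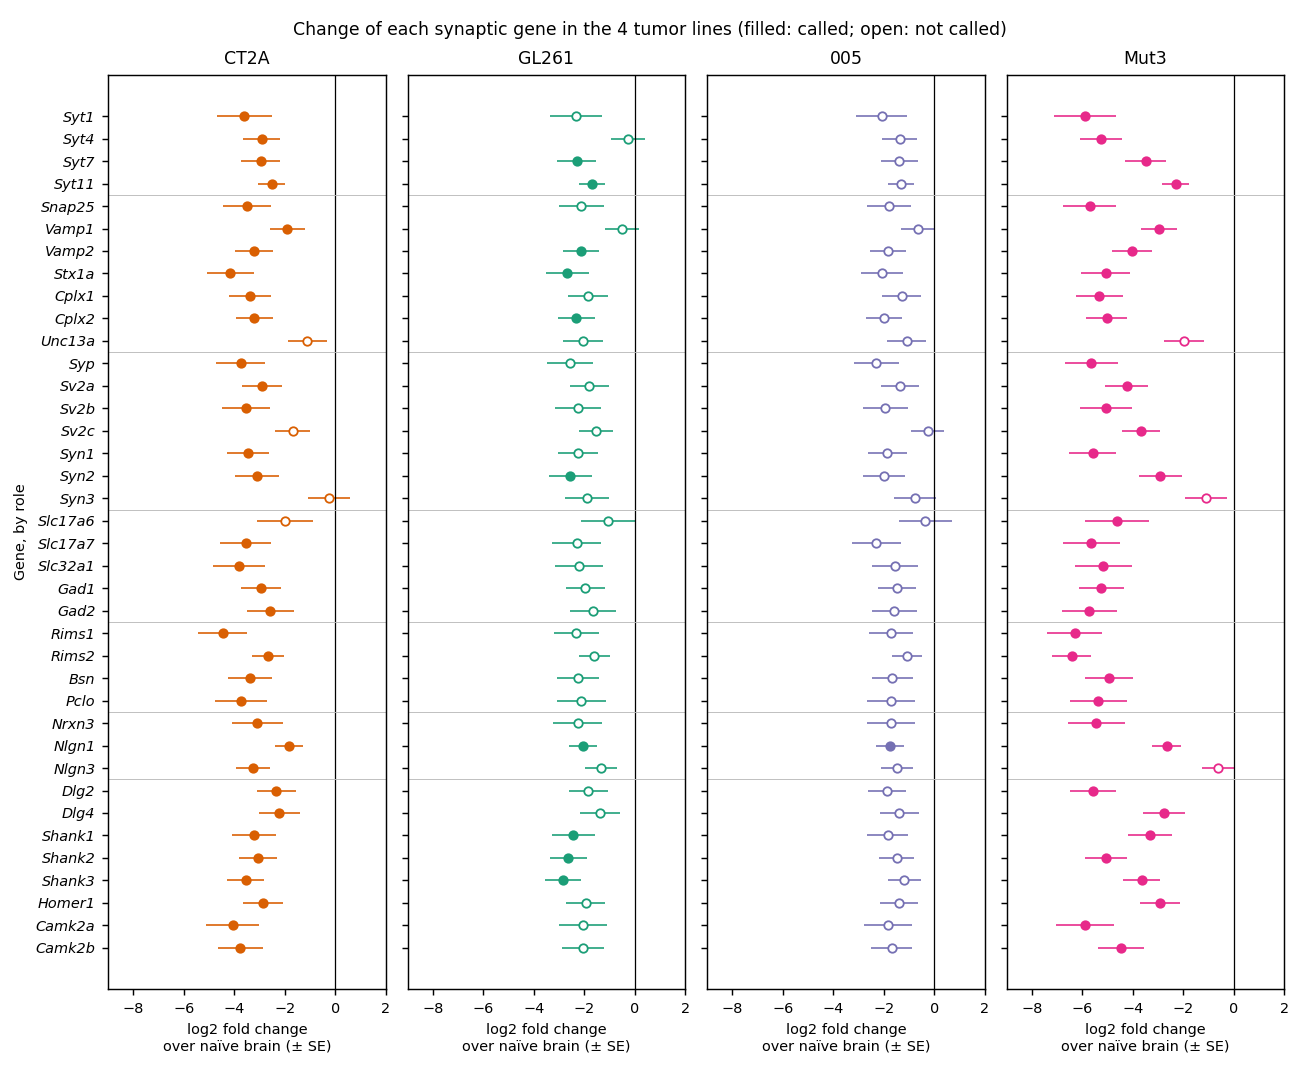
Log2 fold change of each of the 38 genes against naïve brain in each line, with bars of 1 standard error from edgeR; filled points passed an adjusted p under 0.05 and a log2 fold change of at least 1 in size, and open points did not. All points lie below 0, and the Mut3 points reach -6.43 for Rims2.

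Among the 4 synaptotagmins, the family that includes the calcium sensors of release, all 4 were lower in CT2A and in Mut3, Syt7 and Syt11 were lower in GL261, and none passed in 005. Syt1, the sensor for fast release, was at 1386, 941 and 1562 CPM in naïve brain, 244, 37.5 and 37.1 in CT2A and 158, 401 and 211 in GL261. In 005 Syt1 had 129, 34.8 and 748, and in Mut3 2.90, 30.8 and 31.1. Naïve brain lay above every tumor, Mut3 replicate 1 was the lowest sample, and 005 replicate 3 was the highest tumor. Syt1 was lower at a log2 fold change of -3.61 ± 1.09 (adjusted p = 0.0169) in CT2A and -5.90 ± 1.21 (adjusted p = 0.00201) in Mut3, and its values in GL261 and 005 were -2.34 ± 1.03 (adjusted p = 0.104) and -2.09 ± 1.02 (adjusted p = 0.173). Syt1 was lower in 005 without its replicate 3, at -4.05 ± 1.06 (adjusted p = 0.00845). Syt4, a synaptotagmin found on neuropeptide vesicles in neurons and in astrocytes, was at 357, 274 and 338 CPM in naïve brain, 82.6, 18.3 and 26.9 in CT2A and 251, 284 and 262 in GL261. In 005 Syt4 had 73.9, 38.4 and 262, and in Mut3 2.45, 14.5 and 8.16. GL261 replicate 2 lay within the naïve range and GL261 replicates 1 and 3 just below it, at a log2 fold change of -0.28 ± 0.68 (adjusted p = 0.78), whereas Mut3 was the lowest group at -5.27 ± 0.82 (adjusted p = 5.2e-04) and CT2A lay between them at -2.92 ± 0.73 (adjusted p = 0.00699).

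Syt11, a synaptotagmin that does not bind calcium and acts in endocytosis, was at 409, 629.9 and 379.9 CPM in naïve brain, 114, 71.3 and 63.2 in CT2A and 94.9, 193 and 148 in GL261. In 005 Syt11 had 85.4, 82.5 and 401, and in Mut3 99.8, 92.9 and 93.3. The 3 Mut3 tumors lay within a narrow band inside the range of the other lines, and the log2 fold change was -2.52 ± 0.54 (adjusted p = 0.00338) in CT2A, -1.70 ± 0.52 (adjusted p = 0.0318) in GL261 and -2.31 ± 0.53 (adjusted p = 0.00399) in Mut3. By TPM it was the most abundant of the 38 genes in Mut3, at 5.58 ± 0.211 (SD, n = 3), ahead of Snap25 at 3.56 ± 1.38 (SD, n = 3), and the values of the 3 mice did not overlap. In naïve brain Snap25 led with 321 ± 34.5 TPM (SD, n = 3), and Syt1 followed with 166 ± 3.41 TPM (SD, n = 3). Syt7, the high-affinity sensor of slower release, was at 37.5, 58.8 and 30.8 CPM in naïve brain, 9.50, 2.32 and 4.38 in CT2A, 6.62, 11.8 and 7.26 in GL261 and 7.91, 3.73 and 36.3 in 005, with 1.79, 2.26 and 7.02 in Mut3. Its log2 fold change was -2.31 ± 0.76 (adjusted p = 0.0419) in GL261 and -3.50 ± 0.80 (adjusted p = 0.00377) in Mut3.

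Of the 7 SNARE proteins and fusion partners, 6 were lower in CT2A and Mut3, 3 (Vamp2, Stx1a and Cplx2) were lower in GL261 and none passed in 005. Snap25, the plasma membrane SNARE that gives both of its helices to the fusion complex, was at 2364, 1803 and 3342 CPM in naïve brain, 465, 90.2 and 106 in CT2A and 355, 902 and 475 in GL261. In 005 Snap25 had 267, 77.7 and 1822, and in Mut3 26.6, 59.3 and 56.5. 005 replicate 3 lay within the naïve range and all other tumors below it, and the log2 fold change was -3.51 ± 0.95 (adjusted p = 0.0102) in CT2A and -5.72 ± 1.05 (adjusted p = 0.00113) in Mut3. Vamp2, the main vesicle SNARE of the forebrain, was at 92.2, 156 and 83.9 CPM in naïve brain, 21.4, 6.82 and 7.09 in CT2A, 18, 34.2 and 23.6 in GL261 and 12.2, 7.47 and 72.1 in 005, with 5.13, 10.5 and 4.65 in Mut3. Every tumor was below every naïve brain, with log2 fold changes of -3.23 ± 0.76 (adjusted p = 0.00516) in CT2A, -2.13 ± 0.72 (adjusted p = 0.0456) in GL261 and -4.04 ± 0.79 (adjusted p = 0.00151) in Mut3. Its paralog Vamp1, the vesicle SNARE of spinal and brainstem neurons, was at 21.8, 32 and 19.7 CPM in naïve brain, 8.89, 5.58 and 5.16 in CT2A and 23, 15.5 and 13.5 in GL261. In 005 Vamp1 had 3.80, 4.70 and 38.6, and in Mut3 2.57, 2.26 and 4.47. GL261 replicate 1 lay inside the naïve range and 005 replicate 3 above it. The log2 fold change of Vamp1 was -0.50 ± 0.67 (adjusted p = 0.599) in GL261, -1.90 ± 0.70 (adjusted p = 0.0411) in CT2A and -2.97 ± 0.73 (adjusted p = 0.0057) in Mut3.

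Stx1a, the syntaxin of the presynaptic membrane, was at 41.7, 88.1 and 38 CPM in naïve brain, 5.12, 1.70 and 2.45 in CT2A and 1.24, 16.6 and 8.34 in GL261. In 005 Stx1a had 4.42, 3.37 and 32.1, and in Mut3 1.56, 1.76 and 1.58. Mut3 was uniform, and GL261 spread widely below naïve brain, with log2 fold changes of -2.67 ± 0.87 (adjusted p = 0.0388) in GL261 and -5.09 ± 0.98 (adjusted p = 0.00142) in Mut3. Complexins clamp and then promote fusion. Cplx1 was at 138, 342 and 134 CPM in naïve brain, 37, 10.1 and 11.5 in CT2A, 45.9, 70.8 and 51.9 in GL261 and 26.5, 14.1 and 209 in 005, with 4.35, 5.27 and 5.44 in Mut3. Cplx2 was at 169.8, 214 and 176 CPM in naïve brain, 30.8, 12.6 and 17.4 in CT2A, 15.9, 57.4 and 38.7 in GL261 and 18.3, 9.51 and 111 in 005, with 7.03, 6.02 and 3.95 in Mut3. Both were lowest in Mut3, at -5.34 ± 0.93 (adjusted p = 8.5e-04) and -5.04 ± 0.82 (adjusted p = 6.4e-04), and naïve replicate 2 held the highest value of each. Unc13a, the priming factor Munc13-1, was at 16.1, 30.8 and 16.2 CPM in naïve brain, 12.9, 1.70 and 14.4 in CT2A, 1.24, 6.61 and 7.14 in GL261 and 10.8, 2.29 and 16.4 in 005, with 3.79, 8.53 and 3.77 in Mut3. It was not called in any line, with log2 fold changes from -2.05 in GL261 to -1.09 in 005, where the value without replicate 3 was -1.75 ± 0.86 (adjusted p = 0.125). CT2A replicates 1 and 3 were only slightly below naïve brain while CT2A replicate 2 was far lower.

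Among the 7 proteins of the vesicle membrane and surface, 5 were lower in CT2A and 6 in Mut3, Syn2 alone was lower in GL261 and none passed in 005. Syp, synaptophysin, an abundant vesicle membrane protein, was at 134, 219 and 101 CPM in naïve brain, 25.7, 3.72 and 4.13 in CT2A and 19.2, 32.1 and 24.9 in GL261. In 005 Syp had 12.2, 4.46 and 75.4, and in Mut3 1.34, 4.89 and 2.81. Every tumor was below every naïve brain, and the log2 fold changes were -3.75 ± 0.95 (adjusted p = 0.00763) in CT2A and -5.65 ± 1.05 (adjusted p = 0.0012) in Mut3. Sv2a, a vesicle glycoprotein, was at 147, 198 and 126 CPM in naïve brain, 41.8, 12.9 and 8.38 in CT2A, 40.5, 55.2 and 39.8 in GL261 and 25.8, 10.4 and 145 in 005, with 4.69, 11.2 and 8.86 in Mut3. Sv2b was at 156, 162 and 146 CPM in naïve brain, 31.9, 2.17 and 5.67 in CT2A, 10.3, 52.1 and 35.1 in GL261 and 19, 7.34 and 94.1 in 005, with 5.02, 4.89 and 3.86 in Mut3. 005 replicate 3 was the highest tumor for both, and the Mut3 log2 fold changes were -4.25 ± 0.85 (adjusted p = 0.00172) and -5.07 ± 1.04 (adjusted p = 0.00204). Sv2c, the third paralog, was at 7.94, 13.9 and 13.2 CPM in naïve brain, 6.58, 1.24 and 2.97 in CT2A and 4.76, 3.55 and 3.75 in GL261. In 005 Sv2c had 7.40, 11.8 and 10.01, and in Mut3 0.223, 0.251 and 2.10. Mut3 replicates 1 and 2 had 2 counts of it each, below the floor of 3 counts, while 2 of the 3 005 tumors lay inside the naïve range. Sv2c was lower in Mut3 at -3.68 ± 0.75 (adjusted p = 0.002) and stood at -0.26 ± 0.66 (adjusted p = 0.806) in 005, or -0.35 ± 0.74 (adjusted p = 0.743) without 005 replicate 3.

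The synapsins coat vesicles and tether them in the reserve pool. Syn1 was at 183, 316 and 137 CPM in naïve brain, 35.3, 10.2 and 11.7 in CT2A, 25, 70.1 and 39.2 in GL261 and 26.3, 11.6 and 136 in 005, with 1.79, 6.14 and 5.17 in Mut3. Syn2 was at 368, 246 and 228 CPM in naïve brain, 75, 11.5 and 12.6 in CT2A, 30.8, 62.4 and 49.9 in GL261 and 23.7, 13.1 and 174 in 005, with 37.8, 40.2 and 33.8 in Mut3. The Mut3 tumors had the lowest Syn1 levels of the tumor lines, and Syn2 levels above 005 replicates 1 and 2 and CT2A replicates 2 and 3. Against naïve brain, Syn1 was -5.59 ± 0.92 (adjusted p = 6.8e-04) in Mut3 and -3.47 ± 0.83 (adjusted p = 0.00571) in CT2A, and Syn2 was -2.91 ± 0.86 (adjusted p = 0.0156) in Mut3, -3.09 ± 0.87 (adjusted p = 0.0126) in CT2A and -2.56 ± 0.85 (adjusted p = 0.0429) in GL261. Syn3 was at 4.68, 6.20 and 2.97 CPM in naïve brain, 7.80, 3.25 and 0.645 in CT2A, 1.86, 0.968 and 0.967 in GL261 and 2.77, 1.08 and 4.19 in 005, with 2.23, 3.76 and 0.438 in Mut3. CT2A replicate 1 was above all naïve brains, and the gene was called in no line. Its log2 fold change was -0.24 ± 0.82 (adjusted p = 0.83) in CT2A, where the direction turned without naïve replicate 2 (0.23) or without CT2A replicate 3 (0.27). Of the exon bases of Syn3, 14.1% overlap those of Timp3 on the opposite strand, a gene at a mean of 49.1 CPM in naïve brain and 104 CPM in CT2A. Whether reads of Timp3 entered the Syn3 counts was not tested.

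The sequences before the start sites of Syn1 and Syn2 are shown because these paralogs parted in Mut3. They are RefSeq start sites on GRCm38.p6, cut at the first base of any GENCODE exon of the gene so that no transcribed base is included, and both run 5′ to 3′ on the gene's strand. Capitals mark CAGCACC, the left part of the RE1 element bound by the neuronal repressor REST, TGACGTCA, the cAMP response element, and GGGCGG, the GC box. The Syn1 window is chrX:20921005-20921168 on the minus strand (164 bases) and the Syn2 window is chr6:115134652-115134901 on the plus strand (250 bases). A further Syn2 start, with the window chr6:115238744-115238993, held none of the 3 motifs and is not printed.
Syn1: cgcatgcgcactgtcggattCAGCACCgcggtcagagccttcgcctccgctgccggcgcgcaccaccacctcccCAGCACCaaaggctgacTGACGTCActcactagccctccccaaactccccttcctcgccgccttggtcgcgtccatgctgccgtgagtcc
Syn2: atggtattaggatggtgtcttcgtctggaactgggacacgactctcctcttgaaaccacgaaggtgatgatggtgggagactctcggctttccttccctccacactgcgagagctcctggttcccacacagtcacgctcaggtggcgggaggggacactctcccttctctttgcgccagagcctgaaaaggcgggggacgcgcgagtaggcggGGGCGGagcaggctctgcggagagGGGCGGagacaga
The Syn1 window held CAGCACC at 2 places and TGACGTCA at 1, and the printed Syn2 window held GGGCGG at 2. The search over many genes used the full 250 bases before each RefSeq start, without the cut at exons, so its windows can hold transcribed bases. On both strands over windows for 28 of the 38 members, CAGCACC was in a window of 3 members (Nlgn1, Sv2c and Syn1), TGACGTCA in 1 (Syn1) and GGGCGG in 18. These members have 42 windows in all, of which 3, 1 and 18 held the letters. Over all 32851 promoter windows the shares were 5.73%, 1.55% and 32.7%. A match is a description of letters, and its absence says only that these letters are not in the window.

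Of the 5 genes of transmitter synthesis and loading, 4 were lower in CT2A, all 5 in Mut3 and none in GL261 or 005. Slc17a7, the vesicular glutamate transporter VGLUT1 of cortical neurons, was at 113, 195 and 108 CPM in naïve brain, 24.5, 2.48 and 8.51 in CT2A and 9.51, 45.2 and 29.9 in GL261. In 005 Slc17a7 had 10.9, 3.13 and 70.4, and in Mut3 1.34, 5.02 and 2.02. Mut3 replicate 1 was the lowest sample, no tumor reached naïve brain, and the log2 fold changes were -3.55 ± 1.02 (adjusted p = 0.0137) in CT2A and -5.64 ± 1.14 (adjusted p = 0.00181) in Mut3. Slc17a6, VGLUT2 of subcortical neurons, was at 55.8, 34.5 and 32.1 CPM in naïve brain, 18.3, 10.8 and 1.55 in CT2A and 37.2, 16.4 and 4.72 in GL261. In 005 Slc17a6 had 2.77, 7.95 and 84.4, and in Mut3 3.24, 0.376 and 1.23. The mice of each line were widely spread, with 005 replicate 3 above all naïve brains and GL261 replicate 1 within their range. Mut3 replicate 2 had 3 counts of it. It was lower in Mut3 at -4.64 ± 1.26 (adjusted p = 0.00969) and stood at -0.36 ± 1.05 (adjusted p = 0.836) in 005, where the direction turned without 005 replicate 1 (0.18) or replicate 2 (0.10) and it was called lower without replicate 3 at -3.002 ± 1.00 (adjusted p = 0.0292).

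Slc32a1, the vesicular GABA transporter, was at 9.16, 32.8 and 9.44 CPM in naïve brain, 2.68, 0.465 and 0.387 in CT2A and 2.90, 5.16 and 3.02 in GL261. In 005 Slc32a1 had 2.16, 0.602 and 14.5, and in Mut3 0.223, 0.627 and 0.526. CT2A replicates 2 and 3 had 3 counts each and Mut3 replicate 1 had 2, so these values are at or below the 3-count floor. Its log2 fold change was -3.82 ± 1.03 (adjusted p = 0.0103) in CT2A and -5.17 ± 1.12 (adjusted p = 0.00273) in Mut3. Gad1 and Gad2 make GABA from glutamate. Gad1 was at 135, 159 and 167 CPM in naïve brain, 41.4, 10.7 and 7.74 in CT2A, 28.7, 51.3 and 38.1 in GL261 and 29.1, 7.47 and 128 in 005, with 3.24, 4.14 and 4.56 in Mut3. Gad2 was at 204, 153 and 129 CPM in naïve brain, 62.4, 13.9 and 5.29 in CT2A, 36, 78.4 and 39.8 in GL261 and 22.3, 7.71 and 131 in 005, with 1.56, 4.76 and 2.81 in Mut3. Mut3 was lowest for both, at -5.26 ± 0.90 (adjusted p = 8.0e-04) for Gad1 and -5.74 ± 1.09 (adjusted p = 0.00128) for Gad2. CT2A stood at -2.94 ± 0.80 (adjusted p = 0.0106) and -2.57 ± 0.93 (adjusted p = 0.0376), and its replicate 1 was the highest of the CT2A tumors for both genes.

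The 4 active zone scaffolds were lower in CT2A and Mut3 and none was called in GL261 or 005. Rims1 and Rims2 link vesicles to calcium channels. Rims1 was at 59.4, 108 and 50.5 CPM in naïve brain, 7.31, 1.39 and 1.03 in CT2A, 4.55, 20.3 and 18.7 in GL261 and 7.60, 4.70 and 54 in 005, with 0.446, 1.00 and 1.23 in Mut3. Rims2 was at 46.2, 40.7 and 40.5 CPM in naïve brain, 9.75, 7.28 and 2.84 in CT2A, 6.82, 21.6 and 13.4 in GL261 and 12.1, 9.87 and 37.9 in 005, with 0.223, 1.00 and 0.263 in Mut3. The Mut3 tumors had 2, 8 and 3 counts of Rims2 and 4, 8 and 14 of Rims1, and only 005 replicate 3 reached the naïve range for Rims1. Rims2 had the most negative log2 fold change of the 38 genes in Mut3, -6.43 ± 0.79 (adjusted p = 1.6e-04), and Rims1 the most negative in CT2A, -4.47 ± 0.99 (adjusted p = 0.00387). Bsn, bassoon, was at 66.4, 97.5 and 55.8 CPM in naïve brain, 14.1, 2.32 and 4.77 in CT2A, 5.79, 22.6 and 17.8 in GL261 and 8.42, 4.33 and 55.7 in 005, with 1.56, 2.76 and 2.81 in Mut3. Pclo, piccolo, the other giant scaffold of the active zone, was at 179.9, 193 and 123 CPM in naïve brain, 27.2, 6.66 and 3.09 in CT2A, 18.6, 63.9 and 31.9 in GL261 and 12.1, 7.71 and 129.7 in 005, with 1.45, 6.39 and 4.12 in Mut3. 005 replicate 3 was the highest tumor for both genes, and the Mut3 log2 fold changes were -4.93 ± 0.95 (adjusted p = 0.00138) and -5.37 ± 1.12 (adjusted p = 0.00219).

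Of the 3 adhesion genes, all were lower in CT2A, Nlgn1 was lower in GL261 and 005, and Nrxn3 and Nlgn1 were lower in Mut3. Nrxn3, a presynaptic neurexin, was at 253, 306 and 248 CPM in naïve brain, 76, 11.2 and 7.61 in CT2A, 31.4, 84.5 and 52.8 in GL261 and 28, 10.2 and 204 in 005, with 2.57, 7.65 and 8.16 in Mut3. Every tumor was below every naïve brain, with log2 fold changes of -3.09 ± 1.00 (adjusted p = 0.0238) in CT2A and -5.45 ± 1.12 (adjusted p = 0.00205) in Mut3. Nlgn1, the neuroligin of excitatory synapses, was at 173, 132 and 123 CPM in naïve brain, 52.3, 35.6 and 31.5 in CT2A, 26.9, 43.7 and 32.2 in GL261 and 20.5, 15.7 and 88.8 in 005, with 12.5, 21.1 and 34.2 in Mut3. All 12 tumors were below naïve brain, including 005 replicate 3, and Nlgn1 was the only member called in all 4 lines: -2.66 ± 0.57 (adjusted p = 0.00267) in Mut3, -2.06 ± 0.56 (adjusted p = 0.0191) in GL261, -1.84 ± 0.56 (adjusted p = 0.0173) in CT2A and -1.77 ± 0.55 (adjusted p = 0.0486) in 005, or -3.05 ± 0.44 (adjusted p = 2.0e-04) without 005 replicate 3. Nlgn3, which is found at excitatory and inhibitory synapses and is also expressed by oligodendrocyte precursors, was at 63.1, 76.7 and 47.5 CPM in naïve brain, 10.5, 4.65 and 4.25 in CT2A and 20.3, 33.7 and 19.6 in GL261. In 005 Nlgn3 had 8.94, 6.14 and 52.5, and in Mut3 41.2, 32.1 and 47.6.

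In Mut3, Nlgn3 overlapped naïve brain at -0.63 ± 0.62 (adjusted p = 0.437), in CT2A it was lower at -3.27 ± 0.68 (adjusted p = 0.00296), and GL261 and 005 stood at -1.35 ± 0.63 (adjusted p = 0.125) and -1.46 ± 0.63 (adjusted p = 0.132). Nlgn3 was called lower in 005 when replicate 3 was left out, at -3.12 ± 0.46 (adjusted p = 2.3e-04). The summed level of oligodendrocyte precursor markers was 69.8, 36.7 and 79.0 TPM in Mut3 against 7.79 to 34.5 TPM in naïve brain, 23.8 to 34.3 TPM in GL261, 3.81 to 20.8 TPM in 005 and 3.26 to 5.17 TPM in CT2A, and its part in the Nlgn3 level was not tested. Nlgn3 spans chrX:101299168-101325963 on the plus strand of GRCm38, and 41.2% of its exon bases are shared with the predicted gene Gm21986 on the same strand, which was at 0 to 1.69 CPM in all samples. How reads of these shared bases were assigned was not tested.

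Of the 8 postsynaptic scaffold and kinase genes, all 8 were lower in CT2A and in Mut3, Shank1, Shank2 and Shank3 were lower in GL261 and none passed in 005. Dlg4 encodes PSD-95, the central scaffold of the excitatory postsynapse, and was at 12.6, 13.9 and 4.86 CPM in naïve brain, 1.83, 1.08 and 3.74 in CT2A and 3.10, 7.26 and 1.69 in GL261. In 005 Dlg4 had 1.44, 1.08 and 9.30, and in Mut3 1.12, 2.01 and 1.49. Naïve replicate 3 was below GL261 replicate 2 and 005 replicate 3, and the log2 fold changes were -2.23 ± 0.81 (adjusted p = 0.0399) in CT2A and -2.76 ± 0.83 (adjusted p = 0.0169) in Mut3. Dlg2, PSD-93, was at 69.6, 47.9 and 83.1 CPM in naïve brain, 25.2, 2.63 and 11.6 in CT2A, 11, 26.1 and 18.6 in GL261 and 11.7, 8.43 and 34.4 in 005, with 0.335, 3.13 and 0.789 in Mut3. Mut3 replicate 1 had 3 counts of it, and the log2 fold change in Mut3 was -5.58 ± 0.92 (adjusted p = 6.8e-04) against -2.34 ± 0.78 (adjusted p = 0.0265) in CT2A.

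Shank proteins form the deeper layer of the postsynaptic density. Shank1 was at 48.4, 40.2 and 39.4 CPM in naïve brain, 7.43, 4.03 and 2.19 in CT2A, 4.55, 12.4 and 6.53 in GL261 and 4.73, 1.57 and 28.8 in 005, with 2.12, 8.28 and 2.46 in Mut3. Shank2 was at 38.7, 59.8 and 29.9 CPM in naïve brain, 8.53, 4.96 and 1.93 in CT2A, 2.48, 9.19 and 8.83 in GL261 and 5.96, 4.82 and 34.4 in 005, with 0.893, 1.38 and 1.49 in Mut3. Shank3 was at 15.3, 37 and 8.63 CPM in naïve brain, 2.92, 0.930 and 1.29 in CT2A, 1.24, 3.87 and 3.27 in GL261 and 5.55, 3.73 and 17 in 005, with 1.23, 2.26 and 1.32 in Mut3. Naïve replicate 2 was the highest sample for Shank2 and Shank3, and no tumor other than 005 replicate 3 reached the naïve range of any of them. In GL261 the log2 fold changes were -2.44 ± 0.84 (adjusted p = 0.0492), -2.63 ± 0.74 (adjusted p = 0.0221) and -2.84 ± 0.71 (adjusted p = 0.0124) for Shank1, Shank2 and Shank3. In Mut3 they were -3.32 ± 0.88 (adjusted p = 0.00839), -5.07 ± 0.85 (adjusted p = 7.1e-04) and -3.66 ± 0.73 (adjusted p = 0.00174).

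Homer1, which links Shank to glutamate receptors, was at 119, 145 and 102 CPM in naïve brain, 27, 9.14 and 14.6 in CT2A and 6.41, 53.7 and 34.8 in GL261. In 005 Homer1 had 17.8, 25.4 and 95.5, and in Mut3 30.4, 11.2 and 6.49. Mut3 replicate 1 was above most other tumors while Mut3 replicate 3 was among the lowest, and the log2 fold change was -2.93 ± 0.80 (adjusted p = 0.00976) in Mut3 and -2.85 ± 0.79 (adjusted p = 0.0119) in CT2A. Camk2a and Camk2b are the subunits of the calcium/calmodulin kinase of the postsynaptic density. Camk2a was at 377, 877 and 299 CPM in naïve brain, 61.4, 10.4 and 21 in CT2A, 27.9, 213 and 130.4 in GL261 and 56, 17.2 and 357 in 005, with 5.24, 11.3 and 9.65 in Mut3. Camk2b was at 177, 344 and 157 CPM in naïve brain, 32, 7.44 and 10.6 in CT2A, 28.7, 88.4 and 46.7 in GL261 and 27.3, 15.2 and 167 in 005, with 4.13, 9.78 and 16.4 in Mut3. Naïve replicate 2 was the highest sample for both, the GL261 tumors spread over a wide range, and the log2 fold changes in Mut3 were -5.89 ± 1.14 (adjusted p = 0.00146) and -4.48 ± 0.91 (adjusted p = 0.00194).

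Other genes of the synapse were examined as a second pair of lists. Of 40 further presynaptic genes tested, 39 were lower in Mut3, 32 in CT2A, 10 in GL261 and 1 in 005, with medians of -4.29, -3.10, -1.94 and -1.64. Of 25 further adhesion and postsynaptic genes, 19, 21, 10 and 0 were lower, with medians of -3.21, -3.03, -1.93 and -1.54, and none of either list was higher in any line. Without 005 replicate 3, 36 of the 40 and 20 of the 25 were lower in 005, with medians of -3.39 and -3.04 and with extremes at Syt10 (-5.39) and Syngr1 (0.04) and at Homer2 (-4.22) and Homer3 (0.43). The extremes of the presynaptic list were the synaptotagmin Syt3 (-4.25) and Stxbp5 (-0.40) in CT2A, Syt5 (-2.74) and Syt2 (0.44) in GL261, Syt10 (-2.41) and Syngr1 (0.05) in 005, and Syt10 (-6.87) and Napa (-1.51) in Mut3. The extremes of the postsynaptic list were Dlgap2 (-4.33) and Homer3 (0.75) in CT2A, Lrrtm1 (-2.63) and Camk2d (0.68) in GL261, Lrrtm1 (-2.16) and Homer3 (0.14) in 005, and Cnksr2 (-6.07) and Dlg1 (0.66) in Mut3. The 12 neuron markers had medians of -5.17, -2.95, -1.98 and -1.54 in the same order of lines, and 12, 11, 2 and 1 of them were called lower. When 005 replicate 3 was left out, the median in 005 was -3.41 and 11 of the 12 were called lower.

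The lines were then compared with each other in 6 pairs. CT2A and GL261 differed in 1 member, Syt4, which was lower in CT2A at -2.64 ± 0.72 (adjusted p = 0.0376), where 3.62% of all genes were called lower and 4.15% higher. The count was 0 without naïve replicate 3, CT2A replicate 2 or 3 or any GL261 replicate, 2 without 005 replicate 2 and 3 without 005 replicate 3. In CPM, 5 members were lower in every CT2A tumor than in any GL261 tumor (19.0% of all genes). CT2A and 005 differed in no member by edgeR and in 2 by DESeq2, and edgeR called 1.99% of all genes lower in CT2A and 2.12% higher. In edgeR, 12 members and 4264 of all 17481 genes had an unadjusted p under 0.05. In CPM, 3 members were lower in every CT2A tumor than in any 005 tumor (13% of all genes), and without 005 replicate 3 these were 3 lower (21.1%) and 2 higher (18.3%). Without 005 replicate 3 the count was 0 with 1 at an unadjusted p under 0.05, the members with a negative value went from 37 to 14 and the median from -1.52 to 0.20, and 2.19% of all genes were lower and 2.13% higher. GL261 and 005 differed in no member by edgeR, DESeq2 or limma, where edgeR called 0.887% of all genes lower in GL261 and 1.73% higher. An unadjusted p under 0.05 in edgeR was reached by 1 member and by 2553 of all 17481 genes. In CPM, 1 member was lower in every GL261 tumor (9.35% of all genes), and without 005 replicate 3 there were 1 lower (19.6%) and 18 higher (21.1%). Without 005 replicate 3, the members with a negative value went from 33 to 4 and the median from -0.40 to 1.33. In that fit Vamp1 (2.01 ± 0.44, adjusted p = 0.0154) and Nlgn3 (1.69 ± 0.43, adjusted p = 0.0343) were higher in GL261, where 2.83% of all genes were higher and 3.04% lower.

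CT2A and Mut3 differed in 5 members. Nlgn3 was lower in CT2A than in Mut3 at -2.64 ± 0.66 (adjusted p = 0.0174), where 6.15% of all genes were lower. Syt4 (2.35 ± 0.73, adjusted p = 0.0456), Gad2 (3.16 ± 0.98, adjusted p = 0.046), Rims2 (3.75 ± 0.74, adjusted p = 0.0042) and Dlg2 (3.24 ± 0.85, adjusted p = 0.0214) were higher in CT2A, where 6.61% of all genes were higher. Nlgn3 was the only member whose 3 CT2A values were all below those of Mut3, and 11 members were above them (19.2% and 19.9% of all genes). The count of 5 became 2 without CT2A replicate 1, Mut3 replicate 1 or Mut3 replicate 3, 3 without naïve replicate 1 or 3, CT2A replicate 2 or 3, or GL261 replicate 2 or 3, and 12 without 005 replicate 3. With limma on log2(TPM + 1) it was 0. The call of Nlgn3 itself was lost without CT2A replicate 2, CT2A replicate 3 or Mut3 replicate 3, and with limma.

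GL261 was higher than Mut3 in 20 members and lower in none, where 11.1% of all genes were called higher and 6.10% lower. The differences were led by Syt4 (4.99 ± 0.81, adjusted p = 0.00152), Rims2 (4.83 ± 0.75, adjusted p = 0.00122), Gad2 (4.08 ± 1.01, adjusted p = 0.0151) and Rims1 (3.99 ± 1.01, adjusted p = 0.0165). All GL261 tumors were above all Mut3 tumors for 26 members (23.8% of all genes). The members not called included Nlgn3 (-0.72 ± 0.62, adjusted p = 0.452), Syn2 (0.36 ± 0.81, adjusted p = 0.798), Syt11 (0.61 ± 0.51, adjusted p = 0.439), Nlgn1 (0.60 ± 0.55, adjusted p = 0.477) and Unc13a (-0.08 ± 0.79, adjusted p = 0.96). The count was 3 without Mut3 replicate 1, 6 without Mut3 replicate 2, 11 without Mut3 replicate 3, 7 without GL261 replicate 2 and 9 without GL261 replicate 3, and with limma on log2(TPM + 1) it was 2.

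005 was higher than Mut3 in 28 members and lower in none, where 14% of all genes were called higher and 5.76% lower. In CPM, 20 members did not overlap and were higher in 005 (18.3% of all genes), and without 005 replicate 3 there were 20 higher (26.4%) and 3 lower (22.9%). The differences were led by Rims2 (5.35 ± 0.76, adjusted p = 6.9e-04), Rims1 (4.60 ± 1.03, adjusted p = 0.00827) and Slc17a6 (4.28 ± 1.24, adjusted p = 0.0258). Without 005 replicate 3, 9 members were higher in 005: Syt4, Cplx1, Sv2c, Syn1, Gad1, Rims1, Rims2, Dlg2 and Shank2, with Rims2 at 4.43 ± 0.64 (adjusted p = 4.6e-04) and Syt4 at 2.69 ± 0.61 (adjusted p = 0.00869). The members with a negative value went from 1 to 7 and the median from 3.30 to 1.39. In that fit Nlgn3 was lower in 005 at -2.47 ± 0.45 (adjusted p = 0.00206), and 9.63% of all genes were higher and 6.50% lower. The count was 11 without Mut3 replicate 1, 17 without replicate 2 and 13 without replicate 3, and with limma on log2(TPM + 1) it was 1.

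To describe the members beyond the general level of neuronal RNA, each was set against the summed counts of the 12 neuron markers in the same mouse. The values are the log2 of this ratio, with 0.5 added to the count and to the sum, minus its naïve mean. These are descriptions without a test. On this scale the median of the 38 members was -1.19 in Mut3, -0.41 in GL261, -0.32 in CT2A and -0.22 in 005. Without 005 replicate 3 the median in 005 was -0.41. The sum is led by the most abundant markers, so these medians do not compare a typical member with a typical marker. By edgeR's log2 fold changes in Mut3, the members had a median of -5.06 and the 12 markers one of -5.17. The markers ranged there from -6.07 (Nefl) to -2.045 (Uchl1). On the relative scale, 8 members in Mut3 were above 0 in all 3 mice and 23 were below 0. Nlgn3 stood highest, with relative log2 levels of 3.56, 2.78 and 3.17. Unc13a had 1.74, 2.48 and 1.14, Syt11 had 1.92, 1.40 and 1.23, Dlg4 had 1.09, 1.49 and 0.89, and Syn2 had 1.27, 0.94 and 0.52. The others above 0 were Syn3, Nlgn1 and Vamp1. The lowest means in Mut3 were those of Rims2 (-2.77), Syt1 (-2.69), Rims1 (-2.50) and Dlg2 (-2.22), so Syt1 and Dlg2 stood below the neuron markers on this scale while their relatives Syt11 and Dlg4 stood above them. In GL261, 17 members were below 0 in all 3 mice and 3 were above it. The 3 above 0 were Syt4 with 1.55, 1.24 and 1.84, Vamp1 with 1.84, 0.79 and 1.31, and Nlgn3 with 0.31 to 0.56. CT2A had 5 members above 0 in all 3 mice and 17 below, and 005 had 7 and 10. Without 005 replicate 3 the counts in 005 were 7 and 22. These last counts need agreement in fewer mice, so they cannot be set against the counts from all 3. The counts also depended on the markers. Without Snhg11 and Uchl1 in the sum, Syt11, Vamp1, Cplx1, Nlgn3, Dlg4, Shank2 and Homer1 joined those above 0 in all 3 mice of 005. In GL261, Vamp2, Cplx2, Sv2b, Slc17a7, Slc32a1, Nlgn1 and Shank2 then left those below 0 in all 3 mice. CT2A gained Syt11 above 0 and lost Cplx2 below it. Mut3 gained Shank3 above 0 and lost Sv2a and Camk2b below it.

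**Figure D3:**
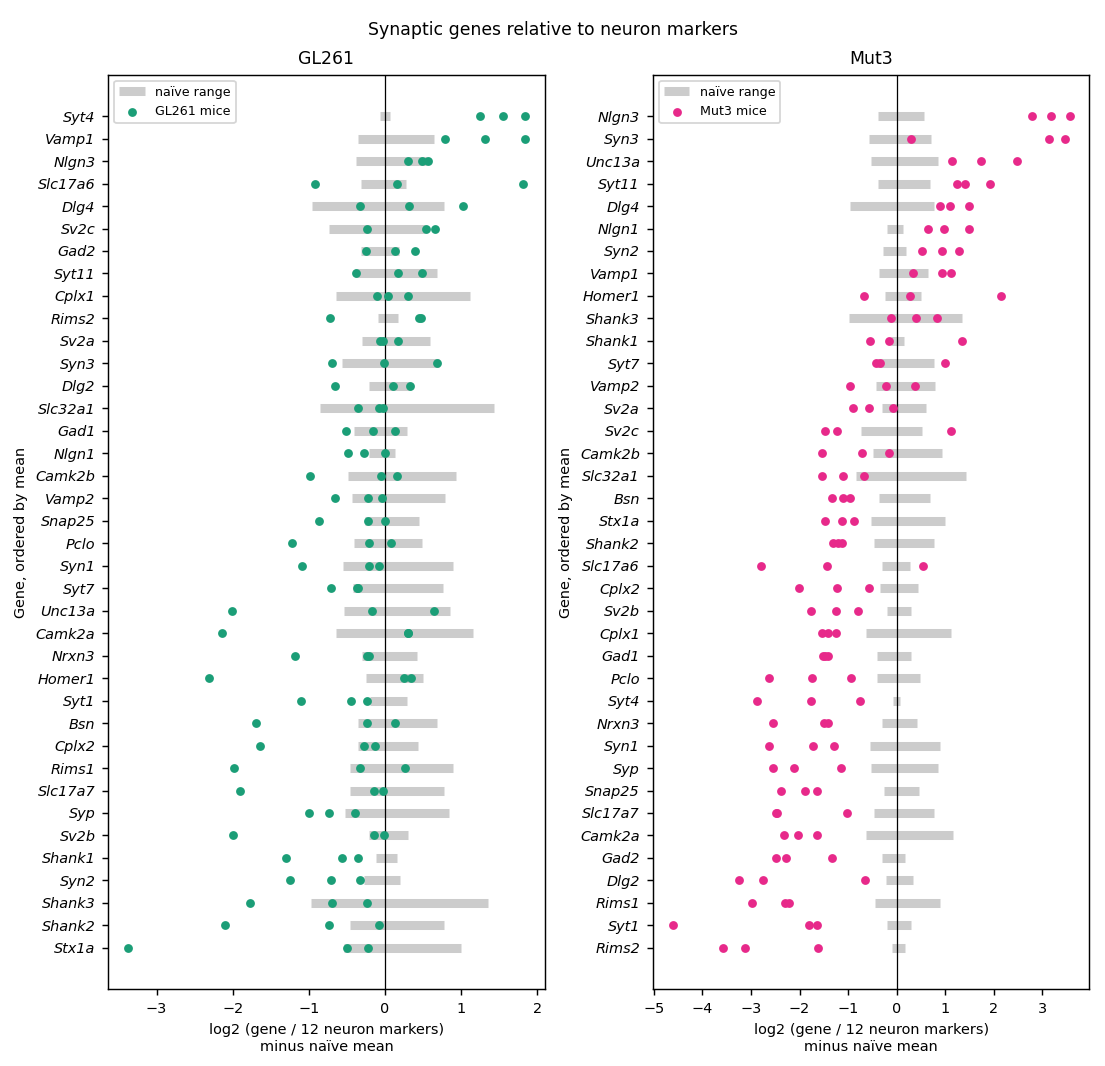
Log2 of the count of each gene over the summed counts of 12 neuron markers in the same mouse, in GL261 and in Mut3. The naïve mean was set to 0. Points are single mice and the grey bars span the 3 naïve brains; Nlgn3 in Mut3 lies at 2.78 to 3.56 and Syt4 in GL261 at 1.24 to 1.84.

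Ratios of related genes within a mouse do not depend on how samples are scaled. Syn2 over Syn1 in TPM was 15.4, 4.73 and 4.69 in Mut3 and 0.559 to 1.52 in the other 12 samples, without overlap. Syt11 over Syt1 was 26.6, 2.37 and 2.35 in Mut3 against at most 1.86 elsewhere. Mut3 replicate 1 was the extreme sample in both. Nlgn3 over Nlgn1 was 6.82, 3.16 and 2.88 in Mut3, 1.57, 1.60 and 1.26 in GL261, 0.752 to 1.20 in naïve brain, 0.814 to 1.22 in 005 and 0.416, 0.266 and 0.280 in CT2A, so Mut3 and CT2A lay at opposite ends. Syt4 over Syt1 was 0.655, 0.291 and 0.509 in GL261 and 0.0889 to 0.120 in naïve brain, and the other lines overlapped GL261, at 0.139 to 0.298 in CT2A, 0.144 to 0.454 in 005 and 0.108 to 0.346 in Mut3. Vamp1 over Vamp2 was 0.140 to 0.160 in naïve brain and overlapped between the lines, at 0.867, 0.306 and 0.391 in GL261, 0.283 to 0.555 in CT2A, 0.211 to 0.432 in 005 and 0.145 to 0.656 in Mut3. Gad2 over Gad1 was 0.457 to 0.669 in GL261 and 0.335 to 0.453 in 005, without overlap between these groups, and the other pairs of groups overlapped.

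**Figure D4:**
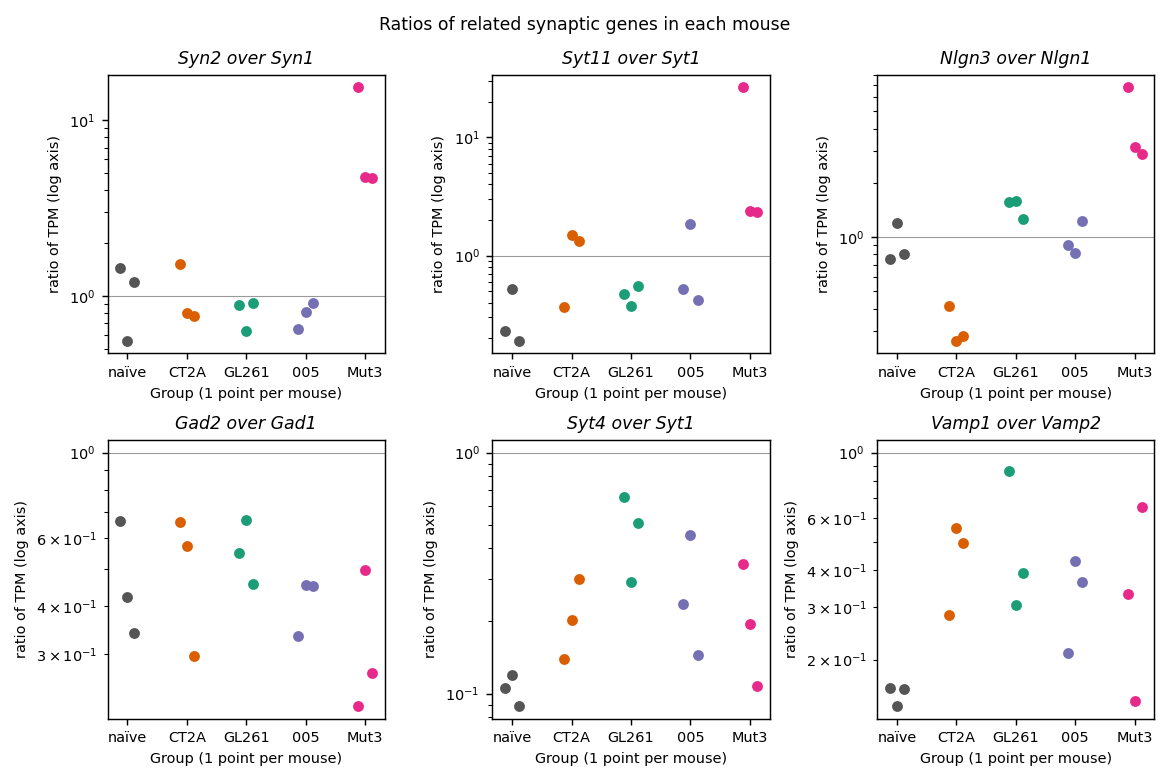
Ratio of TPM for 6 pairs of related genes, with 1 point per mouse on a log axis and a line at a ratio of 1. Syn2 over Syn1, Syt11 over Syt1 and Nlgn3 over Nlgn1 are highest in the 3 Mut3 mice, and Gad2 over Gad1 overlaps between the groups except between 005 and GL261.

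The members differed in how far naïve replicate 2 departed from the other naïve brains. Its TPM over the mean of naïve replicates 1 and 3 had a median of 2.96 over the 11 members with a GC content of at least 55% in the longest coding transcript and 1.19 over the 7 members under 45%. For the log2 of this ratio, a small constant was added to both TPM values first. Across the 38 members it went with GC content at a Pearson's r of 0.682 and a Spearman's rho of 0.715, against 0.350 and 0.338 across 8731 genes. Genes are not independent replicates, and all points share these 3 libraries. The log2 of TPM over CPM, minus each gene's naïve mean, had a median over 4672 genes of 0.40 in naïve replicate 2. It was -0.10 and -0.30 in naïve replicates 1 and 3, and this offset raises all of these ratios alike. Leaving out this library together with 005 replicate 3 gave 35 members lower in Mut3, 34 in CT2A, 16 in GL261 and 33 in 005.

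**Figure D5:**
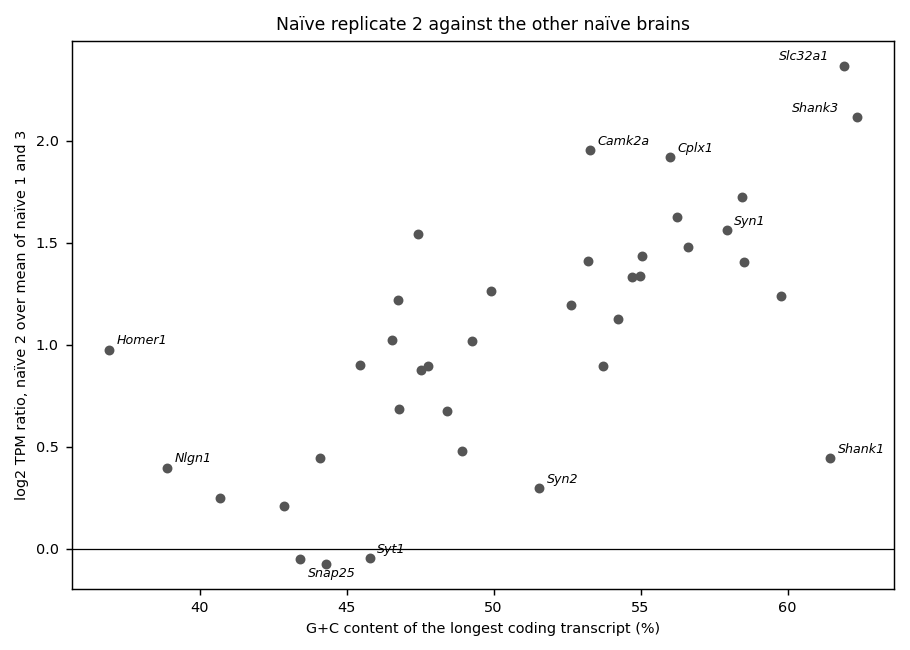
Log2 of the TPM in naïve replicate 2 over the mean of naïve replicates 1 and 3, with a small constant added to both, for each of the 38 genes against the GC percent of its longest coding transcript. Members with a GC content of at least 55% have a median ratio of 2.96 before the constant and the log, and those under 45% a median of 1.19.

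Of the 38 members, 17 share exon bases with another annotated gene and 5 share at least 10%. Besides Nlgn3 and Syn3 these are Slc32a1, Syp and Syt4, which overlap the predicted genes Gm14205 (24.9% of exon bases), Gm14703 (16.8%) and Gm26658 (14.5%). The partners were low, with Gm14205 at 0 counts in all samples, Gm14703 at 0 to 1.495 CPM and Gm26658 at 0 to 0.485 CPM.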

How the data were processed

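RNA from naïve brain and from 4 kinds of brain tumor was sequenced in 3 separate mice each. Per the study's methods, the authors aligned reads with STAR 2.4.2a and checked them with Picard and RNA-SeQC. The submitters' processing notes also name Salmon, DESeq2 1.18.1 and mm10. The annotation release and the strandedness of counting are not given in the sources used here. The deposited files hold expected counts and TPM per Ensembl gene, both made by the authors. A gene factor and a sample factor account for the counts given the TPM in 4644 genes of over 50 counts each, with a largest log2 residual of 9.61e-10, so both tables carry the same information. Of 46679 identifiers, 46201 matched GENCODE M21 (GRCm38), which gave symbols and coordinates, and 0 columns were left unmapped.

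Expected counts were rounded and fitted in R 4.3.3 with edgeR 4.0.16 (filterByExpr, TMM, quasi-likelihood, 1 mean per group, all 15 samples, all 17481 genes that passed the filter). The script was tested on simulated data. limma 3.58.1 on log2(TPM + 1), DESeq2 1.42.0, other scalings and filters, the replicate block and leaving out libraries were the alternatives. The members and lists were chosen with earlier results of these data known. All 38 members are described by role, with values per sample (those for Syt7, Unc13a, Syn2, Syn3, Nlgn1 and Shank1 were added after their values were seen), and the further lists by counts and their largest and smallest fold changes. A floor of 3 counts was 0.228 to 0.966 CPM by sample before TMM scaling and covers counting error only. The CPM listed per gene include that scaling, so values were set against the floor by their counts. Promoter windows came from RefSeq on GRCm38.p6. The p-values rest on the spread between mice. Part of the genotype of the lines is not reported here.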

Additional observations from a re-analysis of the deposited data

Results flagged for a closer look

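These results differed between tumor lines by edgeR's test of the difference between the lines, at an adjusted p under 0.05 and a log2 difference of at least 1. Values are log2 differences of the first line minus the second.

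Syt4 was the single member that parted CT2A from GL261, at -2.64. CT2A and Mut3 parted in both directions, with Nlgn3 at -2.64 and Rims2 3.75, Dlg2 3.24, Gad2 3.16 and Syt4 2.35. Nlgn3 was thus the one member that was called higher in Mut3 than in another line in the fit on all samples, and this call was lost without CT2A replicate 2, CT2A replicate 3 or Mut3 replicate 3, and with limma.

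GL261 exceeded Mut3 in presynaptic members by log2 differences of Syt4 4.99, Rims2 4.83, Gad2 4.08, Rims1 3.99, Snap25 3.60, Syt1 3.57, Cplx1 3.48, Syn1 3.35, Slc17a7 3.35, Gad1 3.30, Pclo 3.26, Syp 3.08, Cplx2 2.72, Bsn 2.69, Vamp1 2.46 and Sv2a 2.45. For adhesion and postsynaptic members the differences were Camk2a 3.82, Dlg2 3.73, Nrxn3 3.19 and Shank2 2.44.

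005 exceeded Mut3 in presynaptic members by Rims2 5.35, Rims1 4.60, Slc17a6 4.28, Gad2 4.14, Cplx1 4.05, Snap25 3.93, Syt4 3.90, Syt1 3.81, Gad1 3.78, Syn1 3.73, Pclo 3.65, Slc32a1 3.62, Sv2c 3.42, Syp 3.35, Slc17a7 3.35, Bsn 3.26, Sv2b 3.13, Cplx2 3.04, Stx1a 3.02, Sv2a 2.87, Vamp1 2.33 and Vamp2 2.18. For adhesion and postsynaptic members the differences were Camk2a 4.04, Nrxn3 3.72, Dlg2 3.71, Shank2 3.57, Camk2b 2.78 and Shank3 2.46. Of these 28 genes, 9 were called without 005 replicate 3, whose neuron markers summed to 1047 TPM against 196 and 103 TPM in the other 005 tumors.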

How the results depend on the processing

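Counts of members called in CT2A (34) and Mut3 (35) against naïve brain moved by less than 1.5 times under the alternatives other than leaving out 1 library. In GL261 against naïve brain the count of 10 was 25 with DESeq2, 27 with no filter on low counts, 33 with limma on log2(TPM + 1), 34 when only the samples compared were fitted, 6 with the replicate block and 16 without naïve replicate 2 and 005 replicate 3, an alternative chosen after seeing the data. In 005 against naïve brain the count of 1 was 8 with DESeq2, 0 with library size alone, 3 with no filter, 31 with limma, 0 with only the samples compared and 33 without both of those libraries. CT2A against GL261 (1) gave 2, 3 and 0 with DESeq2, only the samples compared and the replicate block, and CT2A against 005 (0) gave 2 with DESeq2 and 2 with no filter. CT2A against Mut3 (5) gave 12 with DESeq2, 3 with library size alone, 8 with no filter, 3 with at least 10 counts in every sample, 0 with limma, 11 with only the samples compared and 2 with the replicate block. GL261 against Mut3 (20) gave 13, 2 and 12 with library size, limma and the block, and 005 against Mut3 (28) gave 1, 3 and 15 with limma, only the samples compared and the block. The replicate numbers share only a label: deviations of same-numbered samples correlated at -0.331 to 0.262, and 3 of 15 samples correlated best with their own number. The cause of these shifts was not tested.

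Leaving out 1 library at a time gave 18 to 34 members in CT2A, 0 to 31 in GL261, 0 to 35 in 005 and 33 to 36 in Mut3 against naïve brain. Between lines it gave 0 to 3 for CT2A and GL261, 0 for CT2A and 005, 2 to 12 for CT2A and Mut3, 0 to 2 for GL261 and 005, 3 to 26 for GL261 and Mut3 and 10 to 29 for 005 and Mut3. Against naïve brain, among single members, the direction turned for Syn3 in CT2A (-1.24 to 0.27, and 0.13 without naïve replicate 2 and 005 replicate 3) and for Slc17a6 in 005 (-3.002 to 0.18). Between lines, leaving out 005 replicate 3 turned the median member from -1.52 to 0.20 for CT2A against 005 and from -0.40 to 1.33 for GL261 against 005.

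Precision was limited by 3 mice a group and, for Rims1, Rims2, Sv2c, Slc17a6, Slc32a1, Dlg2, Shank2 and Syn3 in Mut3, by single-digit counts in some tumors.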

Other observations

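Among genes that share few exon bases with a member, Timp4 overlaps 1.28% of the exon bases of Syn2 and had a mean of 21.9 CPM in naïve brain and 33.5 CPM in Mut3, with 9.54 to 17.7 CPM as means of the other lines. Colgalt1 overlaps 3.92% of those of Unc13a and had a mean of 28.5 CPM in naïve brain, with means of 71.6 in Mut3, 78.8 in CT2A, 37.7 in 005 and 70.1 in GL261. In Mut3, Timp3 was at 58.7, 61.0 and 7.30 CPM in the mice in which Syn3 was at 2.23, 3.76 and 0.438 CPM. In CT2A, Timp3 was at 108, 96.7 and 108 CPM where Syn3 was at 7.80, 3.25 and 0.645 CPM. How reads of shared bases were assigned was not tested.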
